A study of Caenorhabditis elegans with 12 samples.

Results

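The cerebral cavernous malformation (CCM) scaffold genes of Caenorhabditis elegans were chosen as a set of 4 among the 46726 genes of the deposited table, and 3 of them are described: ccm-2 (listed under its sequence name K07A9.3), kri-1 and ccm-3. They were chosen by name, and the choice was made with the comparison of the mutant and the wild type already in view. Their values between those 2 groups are therefore given as a description, with no test.

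Whole animals at day 7 of adulthood were profiled by mRNA sequencing in 2 groups of 6 libraries. N2 is the laboratory wild type. The other group is strain TG1660, which carries the tm2842 allele of xpf-1. This gene encodes the XPF-1 endonuclease subunit, which cuts damaged DNA strands in nucleotide excision repair. Each library came from a pool of age-matched animals fed Escherichia coli OP50, and no other allele or treatment is named for either group.

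CCM proteins form an intracellular scaffold first known from families with malformed brain vessels. KRI-1 is the worm orthologue of human KRIT1, CCM-2 of the adaptor CCM2, and CCM-3 of PDCD10. In worms, KRI-1 acts in the intestine and is needed for the long life of animals without a germline and for germ cell death after DNA damage. CCM-3 restrains contraction of the actomyosin corset of the syncytial germline and keeps the tube of the excretory canal open.

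Before the genes are described, 3 libraries need a word. One library, N2 replicate 6 by its title, has N2 as its strain but the mutant as its genotype in the labels, and it was kept in N2. The xpf-1 gene (WBGene00008140, chromosome II, 11696171 to 11705359, plus strand) had 1468 reads in it, against 1192 to 1758 over all 6 N2 libraries and 213 to 304 in the mutant. Its mean was 73.0 ± 7.19 CPM (read counts scaled to the library's total) in N2, against 11.7 ± 1.57 CPM in the mutant (± SD over 6 libraries). This was a log2 fold of -2.64 ± 0.08 (SE; edgeR adjusted p = 3.25e-22). N2 replicate 2 stood apart by gene length: the median deviation from the N2 mean in genes over 3000 bases, minus that in genes under 1000 bases, was -0.33 log2 units. The same measure lay between -0.07 and 0.20 in the other 11 libraries, with the highest value in xpf-1 replicate 1. Library totals ran from 18407182 to 22817135 reads. The labels speak of triplicates, while 6 libraries per group were analysed. Nothing says which came from separate cultures, so the spread behind each p-value is that of libraries, and part of it may be technical.

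The widest difference among the 3 genes was in ccm-2, the adaptor gene. It lies on chromosome IV at 1834626 to 1846978 on the plus strand (WBGene00019462, WBcel235). In N2 its level was 4.09 CPM in the lowest library, 4.90 CPM at the median and 6.09 CPM in the highest. In xpf-1 the lowest library had 45.7 CPM, the median was 55.1 CPM and the highest had 64.1 CPM. Every mutant library stood above every N2 library, and N2 replicate 6, the library with the conflicting label, was the highest of the N2 group at 130 reads. The group means were 4.95 ± 0.718 CPM in N2 against 54.9 ± 6.91 CPM in xpf-1 (± SD over 6 libraries), an 11.03-fold ratio. On the log2 scale the fold was 3.46 ± 0.10 (SE), with a 95% interval of 3.27 to 3.66. It was the 15th highest log2 fold of the 14248 genes that passed the filter on low counts. The read numbers behind these levels were 84 to 130 per N2 library and 994 to 1366 per mutant library. Without N2 replicate 6 the log2 fold was 3.53, and without N2 replicate 2 it was 3.47. In whole animals, more cells of a type and more RNA per cell cannot be told apart.

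ccm-2 was the single gene of the 3 whose groups did not overlap. Among all tested genes, 38.2% had groups that did not overlap, 17.9% with the mutant higher and 20.3% with it lower. By edgeR, 59.7% of the tested genes passed an adjusted p of 0.05, which is 30.1% higher in the mutant and 29.6% lower. The choice of the genes used this contrast, so nothing is read from these counts.

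**Figure D1:**
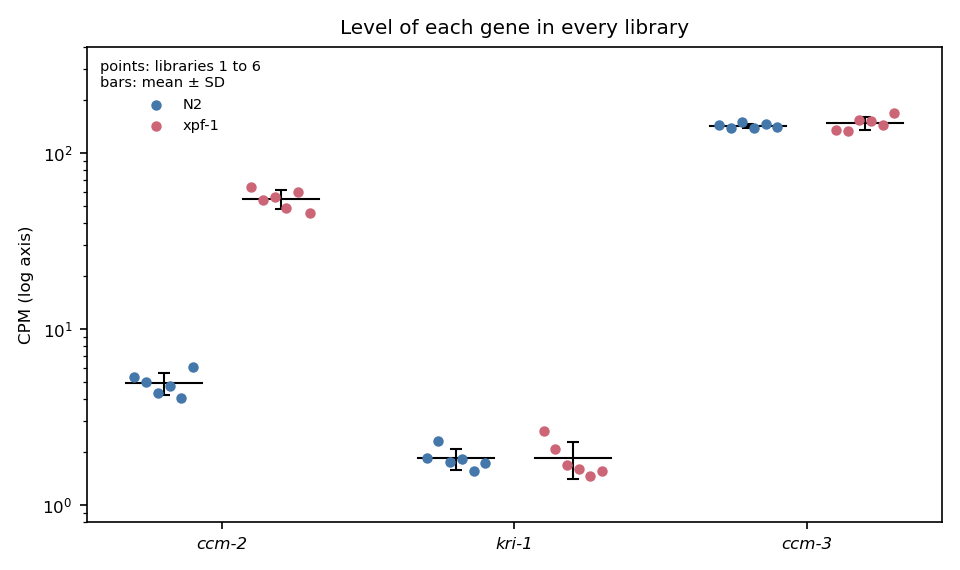
Level of each gene in CPM (log axis) in the 6 N2 and 6 xpf-1 libraries, drawn as points with the mean and SD as bars. The ccm-2 points run from 4.09 to 6.09 CPM in N2 against 45.7 to 64.1 CPM in xpf-1, while the points of the 2 groups overlap for kri-1 and ccm-3.

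kri-1, the gene of the KRIT1 orthologue, was the scarcest of the 3. It lies on chromosome I at 8226509 to 8240637 on the minus strand (WBGene00013955). In N2 the lowest library had 32 reads, the median was 36 and the highest had 41. In xpf-1 the lowest had 27 reads, the median was 36.5 and the highest had 56. On the CPM scale the N2 range lay inside the mutant range, with the highest mutant value in xpf-1 replicate 1 and the highest N2 value in N2 replicate 2. The means were 1.85 ± 0.255 CPM in N2 against 1.85 ± 0.440 CPM in xpf-1 (± SD over 6 libraries). The log2 fold was 0.00 ± 0.20 (SE), with a 95% interval of -0.41 to 0.42. A true difference of any size inside that interval is compatible with these few reads. Counting error alone gives a coefficient of variation of 16.5% at the N2 reads and 16.01% at the mutant reads, and the observed values were 13.8% and 23.8%. Leaving out xpf-1 replicate 1 moved the log2 fold to -0.11, and leaving out N2 replicate 2 moved it to 0.08.

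The kri-1 span holds another gene on the opposite strand. T02E1.8 lies at 8235747 to 8237500 on the plus strand and had 341 reads over the 12 libraries, 6 to 35 per N2 library and 24 to 40 per mutant library. How strand was handled in the counting is not stated in the labels, so reads of these 2 genes may not be told apart where they overlap. T02E1.8 itself did not pass the test (a log2 fold of 0.51 ± 0.28 with an adjusted p by edgeR of 0.113).

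ccm-3 was the most abundant of the 3 and the steadiest. The gene encodes the PDCD10 orthologue and lies on chromosome II at 10605718 to 10607625 on the minus strand (WBGene00007561). It is on the same chromosome as xpf-1, 1088545 bases away. In N2 its level was 139 CPM in the lowest library, 142.3 CPM at the median and 149 CPM in the highest. In xpf-1 it was 133 CPM in the lowest, 147 CPM at the median and 169.8 CPM in the highest, replicate 6. The N2 range lay wholly inside the mutant range. The means were 143 ± 4.16 CPM and 148 ± 13.4 CPM (± SD over 6 libraries), and the log2 fold was 0.05 ± 0.05 (SE; 95% interval -0.06 to 0.16). The coefficient of variation was 2.91% in N2 and 9.10% in the mutant, with 1.87% and 1.79% given by counting error.

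Levels of different genes were compared per unit length, on the authors' FPKM scale (fragments scaled to gene length and library depth). In every library of both groups the order of the levels was ccm-3, ccm-2 and kri-1 from high to low. No neighbours in that order overlapped within a group. In N2 the FPKM means were 128 ± 5.47 for ccm-3, 6.24 ± 0.842 for ccm-2 and 0.783 ± 0.0941 for kri-1 (± SD over 6 libraries). In xpf-1 they were 139 ± 13.996, 72.5 ± 8.08 and 0.821 ± 0.188 for the same genes. The ccm-2 level exceeded 38.9% of the tested genes in N2 and 82.8% in the mutant. kri-1 stayed low in that ranking, above 9.61% and 7.76% of the tested genes, and ccm-3 high, above 89.5% and 91.4%.

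The distance between the 3 levels differed between the groups mainly through ccm-2. The ccm-3 to ccm-2 FPKM ratio was 20.8 ± 3.33 in N2 and 1.95 ± 0.410 in xpf-1 (± SD over 6 libraries), with no overlap between the groups. The ccm-2 to kri-1 ratio was 8.05 ± 1.36 in N2 and 90.98 ± 17.8 in xpf-1, again with no overlap. The ccm-3 to kri-1 ratio, in which ccm-2 has no part, was 166 ± 23.6 in N2 and 177 ± 45.8 in xpf-1, a difference smaller than either SD. ccm-2 made up 4.64% ± 0.706 of the summed FPKM of the 3 genes in N2 and 34.3% ± 4.44 in xpf-1. The share of ccm-3 in that sum was 94.8% ± 0.742 in N2 and 65.3% ± 4.51 in xpf-1. The lengths that the deposited FPKM values imply are 773 bases for ccm-2, 2297 for kri-1 and 1090 for ccm-3. Those for kri-1 and ccm-3 differ from the lengths in the deposited table (2629 and 1114 bases). The ccm-2 length is that of a deposited model which leaves 889 of 1660 exon bases of a later annotation outside (below). The ratios, shares and rankings between genes carry these uncertainties.

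**Figure D2:**
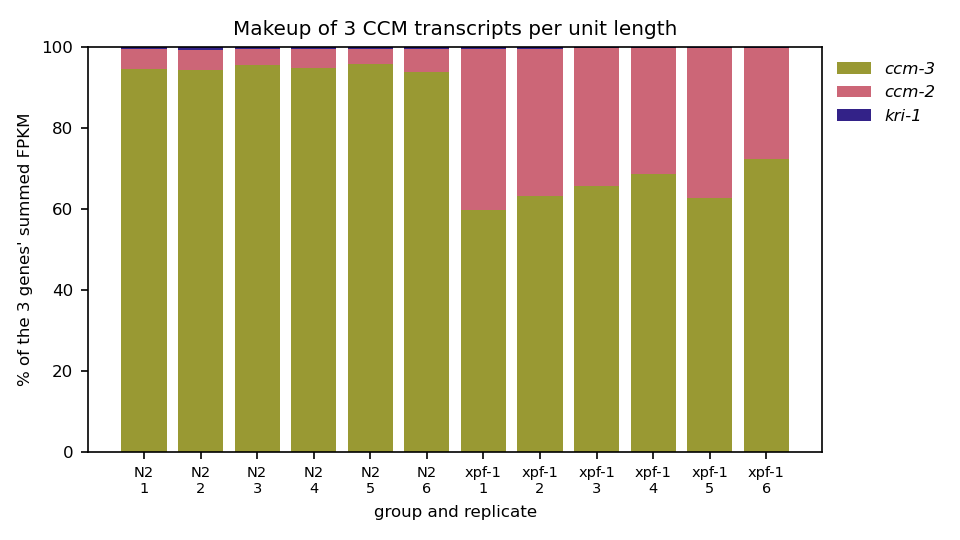
Share of the summed FPKM of the 3 genes, in %, taken by each gene in every library, with N2 replicates 1 to 6 on the left and xpf-1 replicates 1 to 6 on the right. ccm-2 takes 3.79% to 5.71% in the N2 libraries and 27.4% to 39.7% in the xpf-1 libraries, and kri-1 at the top is barely visible.

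The gene models differ between the deposited table and a later annotation, which bears on ccm-2 most. In Ensembl release 115 on WBcel235, ccm-2 has 1 transcript with 10 exons and 1660 exon bases, its longest intron spans 6767 bases, and it runs on to 1847961. The deposited span ends earlier and leaves 889 of those exon bases, at the 3′ end of the gene, outside. Reads from that end are then not in the ccm-2 count of either group. In the same annotation kri-1 has 2 transcripts and ccm-3 has 1.

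The next gene downstream of ccm-2 was also higher in the mutant. This gene, egl-4, encodes a cGMP-dependent protein kinase that acts in sensory adaptation and body size. It begins 989 bases beyond the deposited end of ccm-2 on the same strand. In the later annotation the gap is much shorter, with ccm-2 ending at 1847961 and egl-4 starting at 1848071. The lowest N2 library of egl-4 had 197 CPM, the median was 228 CPM and the highest had 267 CPM. In xpf-1 the lowest was 518 CPM, the median was 536 CPM and the highest was 687 CPM, and the groups did not overlap. egl-4 rose from 229.8 ± 23.6 to 559.7 ± 63.8 CPM (a log2 fold of 1.28 ± 0.07 with an adjusted p by edgeR of 6.94e-12). Without xpf-1 replicate 1, which held its highest value, the log2 fold was 1.23. On the other side, cmk-1, a calcium and calmodulin-dependent kinase gene 596 bases upstream, did not pass the test (2.29 ± 0.473 and 2.98 ± 0.582 CPM, log2 fold 0.39 ± 0.18, edgeR adjusted p = 0.0613). It passed with library totals (0.0273) or upper quartile factors (0.0270), and without N2 replicate 2 (0.0266), xpf-1 replicate 4 (0.0493) or xpf-1 replicate 5 (0.0266). Further downstream egl-18, a GATA factor gene, fell by 0.23 ± 0.05 log2 units (edgeR adjusted p = 0.000337), and denn-4 rose by 0.41 ± 0.09 log2 units (edgeR adjusted p = 0.00047), a call lost once the trend with gene length was removed (0.0876).

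Of the 30 protein-coding neighbours of the 3 genes, 5 on each side, 19 were tested, and 4 rose, 6 fell and 9 did not pass. The share called was 52.6%, beside 59.7% over all tested genes. It includes cutl-9, whose p is a description only (below). Beside kri-1, gla-3, a zinc finger gene that limits germ cell death, fell from 37.98 ± 5.98 to 20.02 ± 3.96 CPM (a log2 fold of -0.93 ± 0.14 with an adjusted p by edgeR of 5.11e-05). gla-3 lies inside the span of dhs-3 on the opposite strand, and dhs-3 had a log2 fold of -0.16 ± 0.05. Strand handling is not stated, so reads of gla-3 and dhs-3 may not be told apart where they overlap. T02E1.2 fell by 0.27 ± 0.05 log2 units (edgeR adjusted p = 4.57e-05). Beside ccm-3, the nearest gene taf-13, a general transcription factor subunit 105 bases away, fell by 0.22 ± 0.07 log2 units (edgeR adjusted p = 0.0111). That call was lost with library totals (0.0582), with upper quartile factors (0.124) and in replicates 4 to 6 alone (0.185). cutl-9, a cuticlin-like gene, rose from 0.339 ± 0.195 to 1.36 ± 0.505 CPM (a log2 fold of 1.98 ± 0.36 with an adjusted p by edgeR of 1.56e-05). It had few reads, 2 to 15 per N2 library and 16 to 44 per mutant library. The mutant libraries carried it past the filter on low counts, so its p is given as a description only. M28.8 rose by 0.29 ± 0.07 log2 units (edgeR adjusted p = 0.00046).

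**Figure D3:**
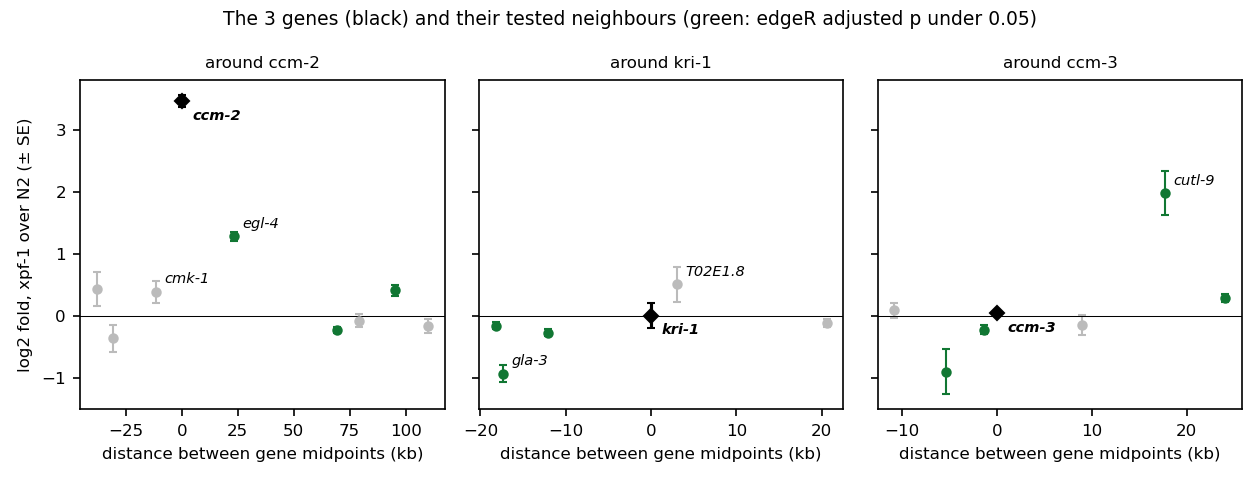
Log2 fold of xpf-1 over N2, with its SE, for each of the 3 genes (black) and the tested genes among the 5 on each side, against the distance between gene midpoints in kb, positive towards higher coordinates. ccm-2 at 3.46 and egl-4 at 1.28 stand above their neighbours, while kri-1 and ccm-3 lie at 0.00 and 0.05 with neighbours on both sides of 0.

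Within a group, no pair of the 3 genes was shown to vary together. Over the 6 libraries of a group, 6 pairs in all, Pearson's r ran from -0.737 to 0.534 and Spearman's coefficient from -0.600 to 0.371. The smallest adjusted p of the two-sided exact permutation test was 0.333 for Pearson's and 0.497 for Spearman's coefficient, and 0 pairs passed an unadjusted p of 0.05 by either measure. With 6 libraries the smallest p the test allows is 0.00139. In the mutant, ccm-2 and ccm-3 had an r of -0.737 (exact p = 0.108), and without the 2 libraries farthest from the median it was -0.220. In all, 2 of the 6 values of r changed sign when those 2 libraries were left out.

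The genes most alike in pattern were found by Pearson's r of log2 CPM over the 12 libraries, among 13809 tested protein-coding genes. These values are a description, since the libraries share depth and gene-length balance. For ccm-2 they also follow its step between the groups, which was in view when the gene was chosen. For ccm-2 the closest were E03H4.8 at 0.996, yars-1, a tyrosyl-tRNA synthetase gene, at 0.996, and irg-2, an infection response gene, at 0.996. Each was higher in the mutant, which a high r with ccm-2 over both groups entails, irg-2 with 18.4 CPM in N2 against 45.6 CPM in xpf-1. Inside a group, r for the 5 closest genes ran from 0.401 (cest-32) to 0.692 (R04A9.7) in N2, and from 0.00 (yars-1) to 0.904 (R04A9.7) in xpf-1. For kri-1 and ccm-3 the highest values were 0.886 (Y48A6B.10) and 0.846 (fbxb-104).

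The other genes of the pathways were taken from 7 lists of 103 genes, of which 101 were in the table and 100 were tested. Of these, 32 rose and 33 fell, or 65% called (median log2 fold 0.04), beside 59.7% called and a median of 0.03 over all tested genes. The count of 65 was 68 without N2 replicate 2 and 62 without N2 replicate 6 or xpf-1 replicate 1. With N2 replicate 6 counted as a mutant it was 46. Among the genes named below, ced-9, ced-13, daf-16, mek-2, mob-4, mtl-1 and tcer-1 then lost their calls, with edgeR adjusted p between 0.0517 (mtl-1) and 0.123 (mob-4).

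A list of 8 genes covered the STRIPAK phosphatase complex, in which CCM-3 orthologues are found, and the MO25 kinase cofactors. Of these, 3 fell and the other 5 did not pass (median log2 fold 0.00), or 37.5% called beside 59.7% of all tested genes. The MO25 gene mop-25.3 fell from 24.5 ± 3.12 to 17.7 ± 1.39 CPM (a log2 fold of -0.46 ± 0.08 with an adjusted p by edgeR of 1.3e-05), while mop-25.1 and mop-25.2 stood at log2 folds of 0.04 and 0.05 and did not pass (0.658 and 0.472). farl-11, the striatin-interacting subunit, fell by 0.23 ± 0.06 log2 units (edgeR adjusted p = 0.00248), a call lost in replicates 1 to 3 alone (0.194). mob-4 fell by 0.19 ± 0.05 (0.00288), and its call was lost with library totals (0.0692), upper quartile factors (0.0711) and in replicates 4 to 6 alone (0.155). With either of those scalings the list had 1 higher and 2 lower. cash-1, the striatin orthologue, stood at 196 ± 24.9 and 193 ± 6.00 CPM and passed, at 0.0460, only where N2 replicate 2 was left out or the length trend was removed (0.0269).

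Of 14 genes of the germline rachis and cytokinetic actomyosin, 4 rose and 4 fell (median log2 fold 0.07). That is 57.1% called, near the 59.7% of all tested genes. cyk-7, which acts at the intercellular bridges of the germline, fell from 93.0 ± 3.55 to 47.8 ± 6.20 CPM (a log2 fold of -0.96 ± 0.07 with an adjusted p by edgeR of 7.37e-14). ani-2, an anillin of the rachis, was lower in xpf-1 by a log2 fold of -0.42 ± 0.08 (edgeR adjusted p = 0.000157), and the formin gene cyk-1 was higher by 0.44 ± 0.10 (0.000838). This split depended on the scaling. It was 7 higher and 3 lower with library totals, 8 and 3 with upper quartile factors, and 2 and 7 with the length trend removed. Germline and oocyte markers fell beside these genes, 14 of 15 lower and 1 higher, where 29.6% of all tested genes were lower and 30.1% higher. None was at 0, and the markers summed to 4039 to 4627 CPM in N2 and 1944 to 2228 CPM in xpf-1. Their part in the germline lists was not tested.

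The MPK-1 extracellular signal-regulated kinase cascade, which acts in oocyte growth and germ cell death, had 5 of 12 genes higher and 4 lower (median log2 fold -0.02). This made 75% called, beside 59.7% of all tested genes. The Raf gene lin-45, the MEK gene mek-2 and the ERK gene mpk-1 fell by 0.51 ± 0.08, 0.29 ± 0.07 and 0.38 ± 0.06 log2 units (edgeR adjusted p = 6.87e-06, 0.000288 and 5.69e-07). The call of mek-2 was lost in replicates 1 to 3 alone (0.0989). lip-1, a phosphatase gene that removes MPK-1 activity in the germline, fell from 19.3 ± 2.58 to 9.52 ± 1.04 CPM (a log2 fold of -1.02 ± 0.10 with an adjusted p by edgeR of 6.3e-11). The scaffold gene ksr-1 rose by 0.27 ± 0.07 (0.000956) and the Ras GTPase-activating protein gene gap-2 by 0.32 ± 0.06 (5.08e-05), the latter not once the length trend was removed (0.626). With that trend removed the list had 3 higher and 5 lower.

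KRI-1 and CCM-2 are reported to act through the kinase MPK-2 and KLF-3 on intestinal zinc transport. Of 24 listed genes, 23 were tested, 4 rose, 9 fell and 10 did not pass (median log2 fold -0.06). The share called, 56.5%, lies near the 59.7% over all tested genes. mpk-2 stood at 7.18 ± 0.951 and 7.25 ± 0.726 CPM (edgeR adjusted p = 0.924), and klf-3, a Krüppel-like factor gene, rose from 6.24 ± 0.392 to 9.36 ± 1.32 CPM (log2 fold 0.58 ± 0.11, 2.05e-05). The zinc transporter gene zipt-2.3, reported downstream of that kinase, fell from 1.11 ± 0.266 to 0.491 ± 0.251 CPM (a log2 fold of -1.18 ± 0.33 with an adjusted p by edgeR of 0.00243). It had few reads, 15 to 33 per N2 library and 4 to 18 per mutant library, and its call was lost in replicates 1 to 3 alone (0.148). The N2 libraries carried zipt-2.3 past the filter on low counts, so its p is given as a description only. It is counted among the 9 that fell. Its relative zipt-2.2 rose from 2.22 ± 0.457 to 7.25 ± 1.252 CPM (log2 fold 1.70 ± 0.15, 1.63e-11). zipt-7.1, which acts in sperm activation, fell from 64.6 ± 4.05 to 32.96 ± 3.92 CPM (1.72e-13), zipt-1 by 0.63 ± 0.05 log2 units (1.74e-13) and zipt-11 by 0.44 ± 0.06 (5.29e-08). The metallothionein genes went opposite ways, mtl-1 from 401 ± 54.8 to 548 ± 53.0 CPM (edgeR adjusted p = 0.000222) and mtl-2 from 94.3 ± 11.9 to 57.8 ± 10.5 CPM (0.0003). With library totals the list had 6 higher and 7 lower, and with upper quartile factors 7 and 7.

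Genes of the longevity that follows germline loss, in which KRI-1 acts on the FOXO factor DAF-16, had 8 of 20 tested genes higher and 5 lower (median log2 fold 0.12). Called genes were 65% of this list, beside 59.7% of all tested genes. daf-16 fell by 0.23 ± 0.06 log2 units (edgeR adjusted p = 0.00074), a call lost in replicates 1 to 3 alone (0.127). tcer-1, an elongation factor gene of the same branch, rose by 0.14 ± 0.06 (0.0312), and its call was lost without any one of N2 replicate 1 (0.0869), N2 replicate 2 (0.0590), xpf-1 replicate 1 (0.0813) or xpf-1 replicate 2 (0.0565). It was also lost with DESeq2 (0.0869), without the low-count filter (0.149), in replicates 4 to 6 alone (0.612) and with the length trend removed (0.795). The steroid hormone synthesis gene daf-36 rose by 0.56 ± 0.12 (0.0002) and the Mediator gene mdt-15 by 0.38 ± 0.06 (3.08e-06). The Notch receptor gene glp-1 fell from 137 ± 21.3 to 81.4 ± 5.43 CPM (edgeR adjusted p = 1.17e-05) and mxl-2, a Mlx-family factor gene, by 0.60 ± 0.07 log2 units (2.52e-09). The lipase gene lipl-4, an effector of this pathway, fell by 0.83 ± 0.22 (0.00157), a call lost in replicates 4 to 6 alone (0.138). The split was 5 higher and 5 lower with no filter on low counts, 10 and 5 with library totals and 11 and 5 with upper quartile factors. In replicates 1 to 3 alone it was 4 and 4, and it was 3 and 4 where N2 replicate 6 was placed in the mutant group.

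In the germ cell death pathway, which needs KRI-1 after irradiation, 2 of 6 genes rose and 3 fell (median log2 fold -0.08). With so few genes this is 83.3% called, beside 59.7% of all tested genes. The BH3 gene egl-1 rose from 4.97 ± 1.18 to 11.8 ± 1.82 CPM (a log2 fold of 1.251 ± 0.13 with an adjusted p by edgeR of 2.83e-09), with groups that did not overlap. The second BH3 gene, ced-13, rose by 0.76 ± 0.20 (0.0017), a call lost in replicates 4 to 6 alone (0.392). The caspase gene ced-3 fell from 68.8 ± 5.85 to 46.5 ± 3.68 CPM (3.37e-09), the p53 gene cep-1 fell by 0.29 ± 0.05 log2 units (3.15e-06), and ced-9, of the BCL2 family, by 0.19 ± 0.05 (0.000666). The ced-9 call was lost with library totals (0.0504) and in replicates 1 to 3 alone (0.127), and ced-4 stood at 0.03 (edgeR adjusted p = 0.588). With N2 replicate 6 placed in the mutant group, 1 rose and 2 fell.

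Loss of CCM-3 shortens the tube of the excretory canal. Of 17 tested genes that shape that tube, 9 rose and 5 fell in whole animals (median log2 fold 0.13). These make 82.4% called, beside 59.7% of all tested genes. The levels are those of whole animals and do not say where in the body these genes changed. exc-13 fell from 56.4 ± 2.81 to 8.07 ± 1.17 CPM (a log2 fold of -2.81 ± 0.08 with an adjusted p by edgeR of 9.84e-24). The aquaporin gene aqp-8 fell by 0.41 ± 0.07 log2 units (3.54e-06). The beta-heavy spectrin gene sma-1 rose by 0.67 ± 0.07 (1.16e-07) and exc-4, a chloride channel gene, by 0.35 ± 0.06 (9.66e-06). The exocyst gene sec-5 and the recycling GTPase gene rab-11.1 rose by 0.25 ± 0.05 and 0.20 ± 0.05 (edgeR adjusted p = 0.000188 and 0.000395). With library totals or upper quartile factors the split was 10 higher and 3 lower, and without xpf-1 replicate 1 it was 9 and 3. In replicates 1 to 3 alone it was 7 and 2, and in replicates 4 to 6 alone 5 and 4. The 5 excretory cell markers, of which 1 rose and 2 fell, are all members of the same list and so no separate gauge of that cell. They summed to 137 to 161 CPM in N2 and 138 to 150 CPM in xpf-1, with none at 0.

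**Figure D4:**
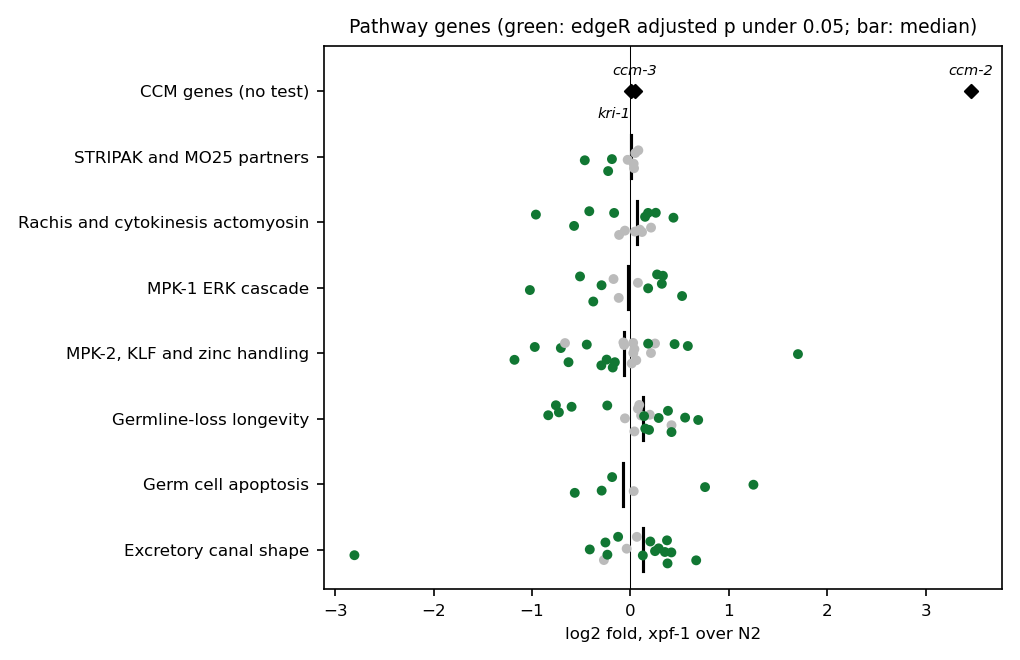
Log2 fold of xpf-1 over N2 for the 3 CCM genes (black, untested) and the tested genes of the 7 pathway lists, green where the edgeR adjusted p was under 0.05 and grey elsewhere, with each list's median as a bar. The medians lie between -0.08 and 0.13, and ccm-2 at 3.46 lies beyond every listed gene, the farthest of which are exc-13 at -2.81 and zipt-2.2 at 1.70.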

How the data were processed

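Whole worms were sequenced in 12 libraries, grouped by title. The submitters' processing notes name the build WBcel235 and the tools featureCounts 1.5.0-p3, HISAT2 2.1.0 and CASAVA. The authors deposited read counts per gene, FPKM values, size-factor normalised counts (a signal), and log2 fold changes with p-values. Only counts and FPKM were used here. Deposited coordinates are those printed, except where Ensembl is named. Counts were fitted over all 14248 genes that passed filterByExpr with edgeR 4.0.16 in R 4.3.3 (quasi-likelihood, robust, TMM factors, Benjamini-Hochberg adjustment, threshold 0.05), and the code was checked on simulated counts. CPM were scaled by TMM-adjusted totals, and log2 CPM used a prior count of 2. Alternatives used DESeq2 1.42.0, limma 3.58.1, other scalings, filters, subsets of libraries, a replicate block and removal of the length trend. Members and lists were chosen with earlier results of these data known. Named genes are xpf-1, the CCM genes, 5 protein-coding neighbours on each side, the 5 genes most alike in pattern, and list members, those of lowest adjusted p first. Of the listed genes, dod-8 and exc-1 were not analysed here. Sequences were not used here. One gene of the set and a few listed genes are not reported here.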

Additional observations from a re-analysis of the deposited data

Results flagged for a closer look

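In 9 of 126 groups of 6 libraries checked, 1 library lay far from the other 5 (a gap to the nearest above Dixon's 95% limit), where chance gives about 1 in 20. None was a value of ccm-2, kri-1 or ccm-3. In N2 replicate 2, the library in which long genes were low, the following CPM lay below the other N2 libraries: gla-3 at 26.0, cash-1 at 147, mek-2 at 38.3, daf-16 at 77.2 and glp-1 at 95.4. In xpf-1 replicate 1, egl-4 at 687 CPM lay above the other mutant libraries (518 to 556 CPM) and so did cyk-1 at 68.9 CPM, while let-92 at 276 CPM and ced-9 at 118 CPM lay below. Each value is 1 library, and its cause was not tested.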

How the results depend on the processing

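Under the 23 alternatives the log2 fold ran from 3.33 to 3.56 for ccm-2, -0.13 to 0.11 for kri-1 and -0.03 to 0.13 for ccm-3; each stayed within 1 SD of log2 CPM. kri-1 has no value with at least 5 CPM in 6 libraries, which removes it. With each library left out in turn the ranges were 3.41 to 3.53, -0.11 to 0.08 and 0.00 to 0.08. Genes called ran from 6593 (replicates 1 to 3 alone) to 9249 (no low-count filter), and from 8195 to 8594 with one library left out. Listed genes called ran from 45 (replicates 1 to 3 alone) to 72 (upper quartile factors), and from 62 to 68 with one library left out. Counting N2 replicate 6 as a mutant gave 6652 genes and 46 listed genes, and a log2 fold of 3.33 for ccm-2. Of 50 named called genes, 36 kept their call in all alternatives and 0 reversed; 4 have no value with at least 5 CPM in 6 libraries, among them cutl-9, which kept its call in the others. nmy-2 did not pass (log2 fold 0.12, edgeR adjusted p = 0.0537). It was lower, at -0.19, with the length trend removed (9.42e-05). It passed as higher with library totals (0.00421), upper quartile factors (0.00133), at least 5 CPM in 6 libraries (0.0072), and without N2 replicate 3, 5 or 6 or xpf-1 replicate 6 (0.0363 to 0.0490).

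With replicate number as a block, 8536 genes and 66 listed genes were called, and the log2 folds were 3.46 for ccm-2, -0.01 for kri-1 and 0.04 for ccm-3. Same-numbered libraries deviated together little (r from 0.00 to 0.12), so this check gave no sign that the numbers pair the samples. It cannot exclude a weak pairing. About 36 reads a library limit kri-1.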

Other observations

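Markers of other tissues are given beside the 59.7% of all tested genes that were called. Of 9 intestine markers 3 rose and 3 fell, with a summed level of 1101 to 1288 CPM in N2, against 792 to 1269 CPM in xpf-1. Of 6 body wall muscle markers 1 rose and 4 fell (836 to 1029 CPM in N2, 734 to 833 CPM in xpf-1). Of 9 neuron markers 3 rose and the other 6 did not pass (369 to 398 CPM in N2, 396 to 418 CPM in xpf-1). Of 5 tested hypodermis markers, 10 being listed, 3 rose and 1 fell (median log2 fold 1.71). The summed level of the 10 was not higher in the mutant, at 254 to 301 CPM in N2 and 228 to 265 CPM in xpf-1. The marker that fell held most of that sum (254 ± 19.4 CPM in N2), and 1 that rose, dpy-7, had 0 to 3 reads per N2 library. The mutant libraries carried dpy-7 past the filter on low counts, so its call and its part in the median are a description only. Of 4 tested sperm markers 2 rose and 1 fell (summed 13.6 to 19.5 CPM in N2, 12.9 to 16.5 CPM in xpf-1). Among those that rose, fer-1 had 2 to 14 reads per N2 library and 11 to 27 per mutant library. The mutant libraries carried fer-1 past that filter too, so its call is a description only. Of 6 tested embryo markers 2 rose and 2 fell, and of 4 pharynx markers 1 rose and 1 fell. The pharynx marker that rose, myo-2, had few reads, 7 to 11 per N2 library and 8 to 40 per mutant library. These whole-animal values do not say in which tissue the CCM genes were transcribed.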
